A study of Mus musculus with 4 samples.

Results

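The transcripts described here are 9 genes that mark microglia, the resident macrophages of the brain, in the embryonic forebrain of Ctcf-null mice: C1qa, C1qb, C1qc, P2ry12, Cx3cr1, Csf1r, Aif1, Tyrobp and Trem2. They were taken by gene symbol from a table of 48795 genes, and each of the 9 had exactly 1 row in it. The study sequenced RNA from the telencephalon of C57BL/6 embryos at embryonic day 14, with 2 Ctcf-null libraries (Ctcf floxed, with NestinCre) and 2 control libraries (Ctcf floxed, without Cre noted). Both groups therefore carry the floxed allele, Cre is noted only in the Ctcf-null group, and an effect of Cre itself cannot be told apart from that of the deletion. The libraries are numbered as 2 pairs, each with a Ctcf-null and a control library, and the labels do not say what a pair has in common. Separate embryos are not mentioned either, so the p-values reflect the spread among these 4 libraries, part or all of which may be technical.

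Microglia come from yolk sac progenitors that enter the brain from outside, whereas the Nestin sequences that drive Cre in such mice are active in neural progenitor cells. They depend on the receptor CSF1R, read their surroundings through receptors such as P2RY12, CX3CR1 and TREM2, and make the C1q chains that start the classical complement cascade. In the embryonic forebrain they are a small population that clears dying cells and associates with progenitor zones. In whole tissue, a higher level of these transcripts through more microglia, through more RNA per microglial cell or through fewer cells of other kinds cannot be told apart.

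The libraries held 43812558 and 25519331 reads in Ctcf-null 1 and 2 and 41294659 and 27619441 in controls 1 and 2, as recovered from the authors' normalized read counts, which are not divided by gene length. Ctcf itself had 38.89 and 61.96 normalized counts in Ctcf-null 1 and 2, against 436.72 and 1133.21 in controls 1 and 2 (log2 fold change -3.81, SE 0.16, limma adjusted p = 3.3e-12), the direction the labels give. The remaining Ctcf reads are from whole tissue, and the share of them from microglia was not measured. Of 10 telencephalon genes, 5 were lower in Ctcf-null libraries and 0 higher in limma (4 and 1 in edgeR), and all 10 were detected in every library.

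The 3 C1q genes lie side by side on the minus strand of mouse chromosome 4 (mm10, GENCODE vM21): C1qb at chr4:136880129-136886187, C1qc at chr4:136889804-136893065 and C1qa at chr4:136895917-136898803, with 3616 and 2851 bases between neighbours. P2ry12 lies at chr3:59216272-59262871. RefSeq promoters (GRCm38.p6) were searched for 6 of the 9 genes: C1qb, C1qc, P2ry12, Cx3cr1, Aif1 and Trem2. None was available for C1qa and Tyrobp, and Csf1r was left out of the search. The promoters of C1qb, C1qc and P2ry12 are shown because these 3 share a 7-base match. C1qb and P2ry12 also had the smallest adjusted p of the 9. Each is the 250 bases before the RefSeq start on the minus strand, with the match to AGGAAGT, or to its reverse complement ACTTCCT, in capitals. This string is a common form of the binding sequence of PU.1, the transcription factor encoded by Spi1 that microglia require.
C1qb, chr4:136886201-136886450: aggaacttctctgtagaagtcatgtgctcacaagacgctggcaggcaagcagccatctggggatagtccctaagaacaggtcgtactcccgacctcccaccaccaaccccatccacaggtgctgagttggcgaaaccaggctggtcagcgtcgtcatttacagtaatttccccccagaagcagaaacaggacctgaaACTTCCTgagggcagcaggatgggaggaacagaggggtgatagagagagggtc
C1qc, chr4:136892915-136893164: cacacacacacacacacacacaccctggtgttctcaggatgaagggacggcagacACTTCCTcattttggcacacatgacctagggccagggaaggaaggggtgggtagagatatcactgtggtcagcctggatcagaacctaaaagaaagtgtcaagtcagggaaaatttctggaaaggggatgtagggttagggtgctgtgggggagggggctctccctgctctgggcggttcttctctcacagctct
P2ry12, chr3:59262986-59263235: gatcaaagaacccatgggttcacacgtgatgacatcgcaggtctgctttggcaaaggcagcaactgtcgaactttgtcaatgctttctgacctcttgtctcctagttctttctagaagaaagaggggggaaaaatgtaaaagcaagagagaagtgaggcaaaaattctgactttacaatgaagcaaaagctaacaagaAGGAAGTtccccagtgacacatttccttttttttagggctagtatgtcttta
The match began 53 bases before the start in C1qb, 52 in P2ry12 and 195 in C1qc. AGGAAGT on either strand was present in 7.69% of the 32851 RefSeq promoter windows of 250 bases searched, and in 3 of the 6 windows of these genes. The longer GAGGAAGT, which contains it, was present in 2.44% of windows and in that of C1qc. The 4-base core GGAA, contained in both, was present in 93.4% of windows and in all 6. The search strings were chosen after the sequences had been seen, and a match describes letters only.

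**Figure D1:**
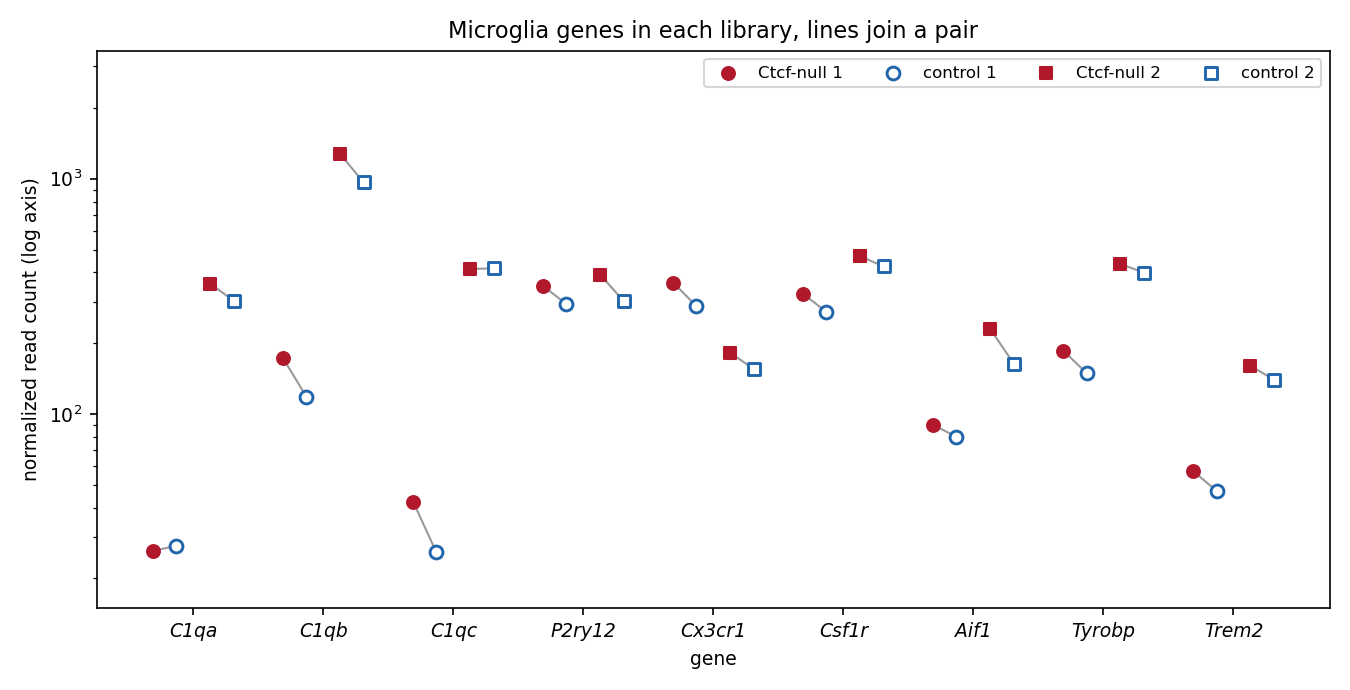
Normalized read counts (log axis) of the 9 microglia genes, with filled red symbols for Ctcf-null and open blue symbols for control libraries, circles for pair 1 and squares for pair 2, and a line joining the libraries of a pair. In 7 genes the Ctcf-null value exceeds the control value in both pairs, and the pairs themselves lie far apart for the C1q genes.

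Within pairs, 7 of the 9 genes were higher in both Ctcf-null libraries than in their paired controls, and 0 were lower in both. Of all 22158 genes tested, 24.5% were higher and 42.9% lower in both pairs. The 9 genes mark the same cells in the same libraries and were chosen with earlier results of these data known. They are not independent observations, and such shares are given for description only. The differences were small. The median of the 9 fitted log2 fold changes was 0.28, against -0.07 for all genes tested, and the pair medians of the 9 were 0.28 and 0.23. One gene passed the test, C1qb, in a limma fit across all tested genes with the pair as a block (Benjamini-Hochberg adjusted p under 0.05). In that fit 3.67% of all genes passed as higher and 10.1% as lower, and 1 gene among 9 is too few to set apart from that share. At an unadjusted p under 0.05, 3 of the 9 were higher, against 7.78% of all genes.

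**Figure D2:**
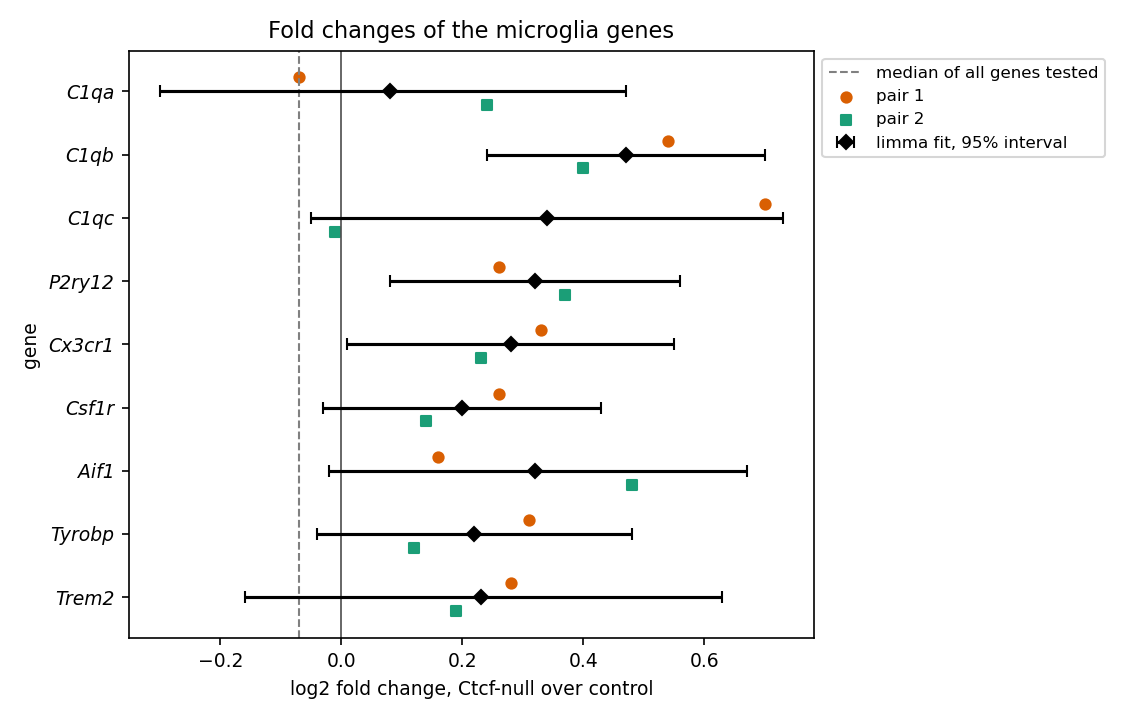
Log2 fold change of each gene, Ctcf-null over control, with diamonds and bars for the limma fit and its 95% interval, circles for pair 1 and squares for pair 2. All 9 diamonds lie right of the dashed line, the median of all genes tested at -0.07, and the interval of C1qb runs from 0.24 to 0.70.

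C1q is a secreted molecule built from A, B and C chains that binds antibody complexes, dying cells and, in the brain, synapses. C1qb had 172.53 and 1271.99 normalized counts in Ctcf-null 1 and 2, against 118.3 and 964.36 in controls 1 and 2. It was higher in both pairs, although Ctcf-null 1 lay far below control 2, so the groups overlap unless libraries are compared within pairs. C1qb was 1.38-fold higher (95% interval 1.18 to 1.62, log2 fold change 0.47, SE 0.11, limma adjusted p = 0.0064). C1qc had 42.43 and 413.06 normalized counts in Ctcf-null libraries, against 25.79 and 416.51 in controls. Its first pair differed by 0.70 on the log2 scale and its second by -0.01, and it did not pass (log2 fold change 0.34, SE 0.19, limma adjusted p = 0.25). C1qa had 26.16 and 358.39 normalized counts in Ctcf-null libraries, against 27.57 and 302.69 in controls, with log2 differences of -0.07 and 0.24 in the pairs. It did not pass either (0.08, SE 0.19, limma adjusted p = 0.82). The first pair holds few reads of these 2 chains, 37 and 31 of C1qa and 60 and 29 of C1qc in Ctcf-null 1 and control 1, so a difference of the size of that of C1qb is within their intervals (-0.30 to 0.47 and -0.05 to 0.73). The nearest protein-coding genes outside the cluster were Ephb2 at 0.02 (SE 0.10) and Epha8 at -0.19 (SE 0.35), and neither passed.

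P2RY12 is a receptor for ADP that guides microglial processes toward damage and is among the most specific microglial genes. P2ry12 had 350.72 and 391.19 normalized counts in Ctcf-null 1 and 2, against 292.63 and 301.44 in controls 1 and 2. It was the only one of the 9 genes in which both Ctcf-null values exceeded both control values, which held for 6.45% of all genes tested. The fitted difference was 1.25-fold (95% interval 1.05 to 1.47, log2 0.32, SE 0.12) and did not pass (limma adjusted p = 0.075). In edgeR's quasi-likelihood test with the same block on the recovered reads, P2ry12 passed with C1qb (log2 0.37, edgeR adjusted p = 0.037), where 4.8% of all genes were called higher and 7.13% lower. Med12l, which overlaps P2ry12 on the opposite strand and shares 9 of its 2546 exonic bases, was at 0.06 (SE 0.18). The neighbouring purine receptor gene P2ry13 was higher in both pairs, with 94.05 and 91.12 normalized counts in Ctcf-null libraries and 79.16 and 66.29 in controls, and did not pass (0.35, SE 0.20, limma adjusted p = 0.26).

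CX3CR1 is the receptor for fractalkine, a ligand made by neurons. Cx3cr1 (chr9:119901616-120069879, minus strand) had 362.04 and 182.23 normalized counts in Ctcf-null libraries, against 287.29 and 155.1 in controls. Alone among the 9, it was lower in the second pair than in the first, in both genotypes. In GENCODE vM21 the gene shares 78 of 4505 exonic bases with an antisense transcript, Gm33858. Its span there also overlaps Wdr48, Gorasp1, Ttc21a, Csrnp1 and Xirp1, with 0 shared exonic bases. The identifier version of Cx3cr1 in the authors' data is another one, so the exons that were counted may differ in extent. Each Ctcf-null library was above its own control (log2 0.28, SE 0.13, limma adjusted p = 0.17). CSF1R is the receptor tyrosine kinase on which microglial survival depends, and Csf1r (chr18:61100598-61132149, plus strand) had 324.56 and 467.73 normalized counts in Ctcf-null libraries, against 271.28 and 424.02 in controls. It too was higher in both pairs and did not pass (log2 0.20, SE 0.11, limma adjusted p = 0.27). The annotated exons of Csf1r share 873 of 5774 bases with Hmgxb3 on the other strand, and the labels give no strand information. Hmgxb3 was at -0.02 (SE 0.13).

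TREM2 binds lipids and dying cells, and TYROBP is the adaptor through which it signals. Trem2 (chr17:48346401-48354147, plus strand) had 57.28 and 160.36 normalized counts in Ctcf-null libraries, against 47.14 and 140.09 in controls (log2 0.23, SE 0.19, limma adjusted p = 0.46). Tyrobp (chr7:30413760-30417585, plus strand) had 185.97 and 434.93 in Ctcf-null libraries, against 149.43 and 399 in controls (log2 0.22, SE 0.13, limma adjusted p = 0.28). Both were higher in both pairs, and neither passed. The ratio of Tyrobp to Trem2 in normalized counts was 3.25 and 2.71 in Ctcf-null libraries and 3.17 and 2.85 in controls, with the largest difference between the pairs. Hcst, the adjacent gene for a related adaptor, was near 0, with 2.12 and 2.43 normalized counts in Ctcf-null libraries and 3.56 and 3.75 in controls. Aif1 (chr17:35170991-35176068, minus strand) encodes IBA1, the calcium-binding protein used to stain microglia. It had 89.8 and 229.61 normalized counts in Ctcf-null libraries, against 80.05 and 163.85 in controls. It was higher in both pairs, by 0.16 and 0.48 on the log2 scale, and did not pass (0.32, SE 0.17, limma adjusted p = 0.22).

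Summed over the 9 genes, the libraries held 1611 and 3909 normalized counts in Ctcf-null telencephalon, against 1299 and 3267 in controls. The sums differed by 0.31 on the log2 scale in pair 1 and 0.26 in pair 2. The 3 C1q genes alone differed by 0.49 and 0.28, and the other 6 by 0.28 and 0.24. These transcripts took 0.0052% and 0.0126% of the reads in Ctcf-null libraries, and 0.00354% and 0.00946% in controls. Such shares are of all recovered reads, without the authors' scaling, so they differ between genotypes by other ratios than the sums. For a list of endothelial genes the 2 scales had opposite signs. Its shares were 0.012% and 0.0321% in Ctcf-null libraries, against 0.0117% and 0.0311% in controls. Its sums differed by -0.21 and -0.11 on the log2 scale in pairs 1 and 2.

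Per kilobase of exon, the order of the levels differed more between pairs than between genotypes. In the second pair C1qb led, with 1170 normalized counts per kilobase in Ctcf-null 2 and 886 in control 2, ahead of Tyrobp with 652 and 598, C1qa with 345 and 291, and C1qc with 214 and 216. The order of all 9 genes was the same in both libraries of that pair. In the first pair Tyrobp led, with 279 in Ctcf-null 1 and 224 in control 1. C1qb and P2ry12 followed and exchanged places between the libraries, with C1qb at 159 and 109 and P2ry12 at 138 and 115. C1qa was there at 25.2 and 26.5 per kilobase. Trem2 was lowest per kilobase in all 4 libraries, at 11.6 and 32.4 in Ctcf-null libraries and 9.53 and 28.3 in controls. The length used combines all annotated exons of a gene, 4946 bases for Trem2, and can exceed that of a single transcript. The order therefore depends on it. In normalized counts of the first pair, C1qa was below Trem2, at 26.16 and 27.57 against 57.28 and 47.14 in Ctcf-null 1 and control 1. In those of the second pair, C1qc was above C1qa, at 413.06 and 416.51 against 358.39 and 302.69. With 2 libraries per genotype that differ this much, neighbours in the order were not tested against each other.

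**Figure D3:**
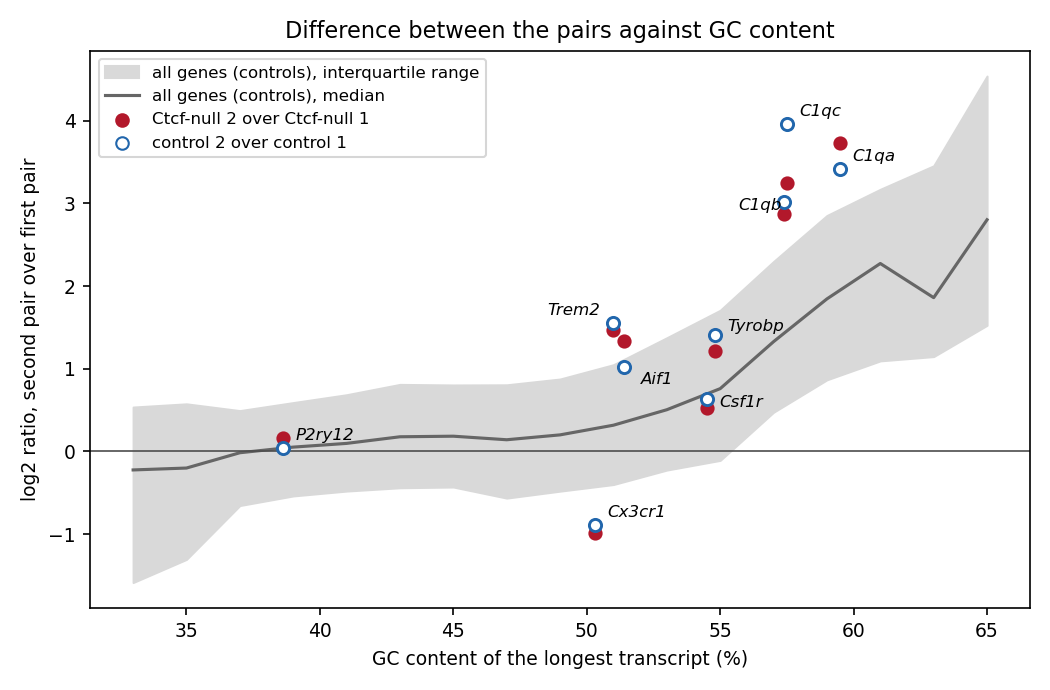
Log2 ratio of the second pair's library over the first pair's against the GC content of each gene's longest transcript, in filled red for Ctcf-null and open blue for control libraries, with the median and interquartile range of the control ratio over all genes in grey. The C1q genes, with GC contents of 57.4% to 59.5%, lie at the top and Cx3cr1 at the bottom in both genotypes.

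For the C1q genes the difference between the pairs exceeded that between genotypes by far. C1qc was 9.53-fold higher in Ctcf-null 2 than in Ctcf-null 1 and 15.6-fold higher in control 2 than in control 1. C1qa was 13.2-fold and 10.6-fold higher, and C1qb 7.34-fold and 8.09-fold. P2ry12 was nearly level between the pairs, at 1.12-fold and 1.03-fold. Tmem119, another widely used microglial marker, had 6.36 and 244.19 normalized counts in Ctcf-null libraries and 4.45 and 183.87 in controls. Genes of similar GC content also differed between the pairs. Among 14529 genes with a mean of at least 50 normalized counts, GC content correlated with the log2 ratio of control 2 to control 1 at r = 0.375, a description across genes that share these libraries. The 1024 other genes within 1 percentage point of the GC content of C1qb had a median log2 ratio of 1.43, and C1qb had 3.02. The 506 such genes around P2ry12, with a GC content of 38.6%, had a median of 0.00, and P2ry12 had 0.04. Other genes departed from those of like GC content. Cx3cr1 had -0.89 against a median of 0.26, Trem2 had 1.55 against 0.32, and C1qc had 3.96 against 1.45. The correlation of GC content with the fold change between genotypes was -0.139. The genes of matching GC content had median fold changes of -0.16 to -0.02 on the log2 scale, below each of the 9 values. The part of GC content in the difference between the pairs was not tested.

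The calls depended on the fit. With the pair left out as a term, 0 of the 9 genes and 0 of all genes passed in limma (170 genes, 0.767%, and 0 of the 9 had an unadjusted p under 0.05), since the difference between pairs then counts as spread. In DESeq2 with the block, 0 of the 9 passed, with C1qb at an adjusted p of 0.081 and 1 of the 9 at an unadjusted p under 0.05, where 1.3% of all genes were called higher and 2.45% lower. Scaling moved the general level too. The authors' factors gave 813 genes higher and 2228 lower with a median of -0.07, TMM factors 979 (4.42%) and 1382 (6.24%) with -0.01, and upper-quartile factors 1229 (5.55%) and 901 (4.07%) with 0.04, 9.61% in all. Under TMM and under upper-quartile factors 2 of the 9 passed as higher, C1qb and P2ry12. The 9 genes stayed above 0 under each of these scalings, with medians of 0.28, 0.34 and 0.39.

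Ligands of the microglial receptors are made largely by other cells, and of 6 such genes tested 1 rose and 0 fell. Pros1, the gene for protein S, which bridges dying cells to the receptors of the TAM family, had 231.93 and 414.28 normalized counts in Ctcf-null libraries, against 130.75 and 281.43 in controls (log2 0.69, SE 0.13, limma adjusted p = 0.0012). Both Ctcf-null libraries were above their own controls. The other TAM ligand gene, Gas6, had 77.78 and 328.02, against 57.81 and 347.72 in controls (0.17, SE 0.16). The CSF1R ligand genes did not pass, with Csf1 at 0.16 (SE 0.16) and Il34 at -0.12 (SE 0.22). Nor did the fractalkine gene Cx3cl1 at 0.15 (SE 0.16), with 50.2 and 366.9 normalized counts in Ctcf-null libraries and 42.69 and 347.72 in controls. Tgfb2, of the TGF-beta family that sustains microglial identity, was lower in both pairs at -0.33 (SE 0.11, limma adjusted p = 0.057). Tgfb1 had too few reads to be tested, with 12.73 and 8.5 normalized counts in Ctcf-null libraries and 8 and 5 in controls.

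**Figure D4:**
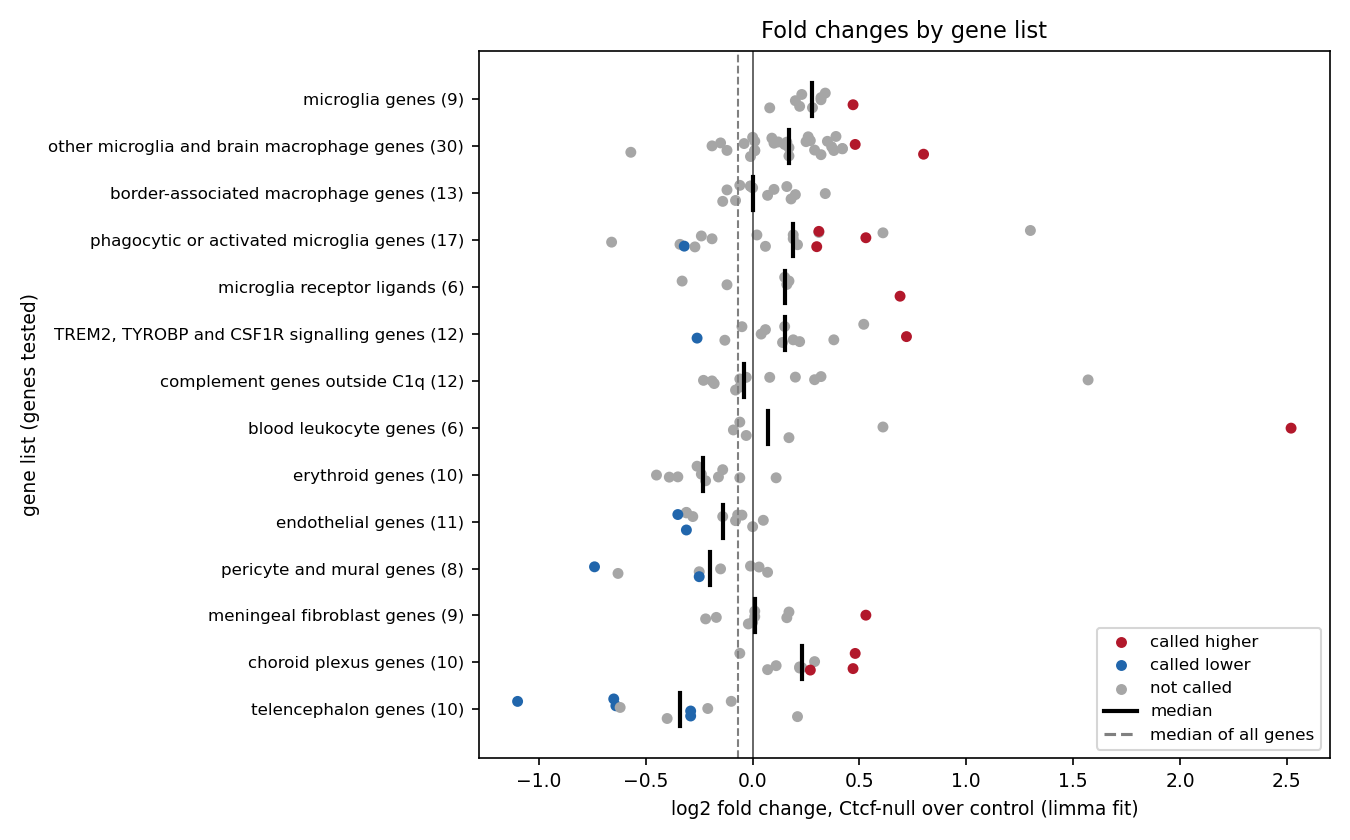
Log2 fold change of each tested gene, Ctcf-null over control, by gene list, with black bars for list medians, red and blue points for genes called higher and lower and grey points for genes not called. The microglia genes lie between 0.08 and 0.47, the choroid plexus genes around a median of 0.23 and the telencephalon genes around -0.34.

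A wider list of 30 genes of microglia and brain macrophages shared much of the direction. In limma, 3.67% of all genes tested were called higher and 10.1% lower. Within pairs, 24.5% of them were higher and 42.9% lower in both. The same shares apply beside the limma counts of the other lists. Beside the edgeR counts, the shares are 4.8% higher and 7.13% lower. Of the 30, 2 rose, 0 fell and 28 did not pass, and 2 is too few to set apart from the share called higher. The median of the list was 0.17, and 18 of 30 were higher and 4 lower in both pairs. Among those that rose, Gpr34, a lysophospholipid receptor gene of microglia, had 159.1 and 201.67 normalized counts in Ctcf-null libraries, against 108.51 and 151.35 in controls (log2 0.48, SE 0.15, limma adjusted p = 0.042), and did not pass in DESeq2 (adjusted p = 0.43). The transcription factor genes Irf8, at 0.38 (SE 0.19), and Spi1, at 0.16 (SE 0.29), did not pass. Sall1, which neural progenitors express as well, was at -0.19 and Laptm5 at 0.01. Besides Sall1, the genes lower in both pairs were Ltc4s at -0.57 (SE 0.39), C5ar1 at -0.15 (SE 0.18) and Rgs10 at -0.12 (SE 0.13). None of them passed. In the list for signalling below TREM2 and CSF1R, 1 of 12 tested genes rose and 1 fell. The kinase gene Syk, which binds phosphorylated TYROBP, had 121.62 and 76.54 normalized counts in Ctcf-null libraries, against 80.05 and 42.53 in controls (0.72, SE 0.20, limma adjusted p = 0.023), and the widely expressed adaptor gene Grb2 fell by 0.26. Syk did not pass in DESeq2 (adjusted p = 0.37). Grb2 did not pass in DESeq2 (0.49), in edgeR (0.12), where the list had 0 lower, or in limma with TMM (0.13) or upper-quartile (0.30) factors.

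Genes of phagocytic or activated microglia went both ways, with 3 of 17 tested higher and 1 lower, a median of 0.19 and pair medians of 0.20 and 0.05. Igf1, a growth factor gene, had 386.79 and 308.58 normalized counts in Ctcf-null libraries, against 245.49 and 232.65 in controls (log2 0.53, SE 0.12, limma adjusted p = 0.0065), and the tetraspanin genes Cd63 and Cd9, which many cells express, rose by 0.31 (SE 0.07) and 0.30 (SE 0.08). Fabp5, also a gene of neural progenitors, fell by 0.32. In edgeR with the block the same list had 7 higher and 1 lower, where 4.8% of all genes were called higher and 7.13% lower. In DESeq2 Cd63 alone of these 4 passed, with adjusted p of 0.13 for Igf1, 0.13 for Cd9 and 0.058 for Fabp5, and Fabp5 did not pass in limma with upper-quartile factors (0.088). Levels in the list varied widely. Apoe, a lipid carrier gene that many brain cells express, had 550.84 and 6826.44 normalized counts in Ctcf-null libraries, against 480.3 and 7159.5 in controls (0.06, SE 0.08), and Spp1, the osteopontin gene, had 88.39 and 115.41, against 72.04 and 198.87 in controls (-0.24, SE 0.21). The cytokine gene Il1a had 12.73 and 20.65 normalized counts in Ctcf-null libraries, against 7.12 and 5 in controls, higher in both pairs, and did not pass (1.30, SE 0.47, limma adjusted p = 0.075). Of the 22 listed genes 4 were below 10 normalized counts in every library, among them Itgax at 3.54 and 6.07 normalized counts in Ctcf-null libraries and 4.45 and 5 in controls, Cst7 at 0 and 3.64 against 2.67 and 3.75, and Il1b at 1.41 and 1.21 against 0.89 and 0. Of 12 tested complement genes outside C1q, 0 rose and 0 fell in limma, and 0 in edgeR, with 1 at an unadjusted limma p under 0.05 and a median of -0.04.

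Border-associated macrophages share most of the 9 genes with microglia. Of 13 tested genes of these cells 0 rose and 0 fell in limma, and 0 in edgeR, with 0 at an unadjusted limma p under 0.05, a median of 0.00 and 4 higher in both pairs. Their summed level was 2918 and 2678 normalized counts in Ctcf-null libraries, against 2999 and 2508 in controls. Mrc1, a mannose receptor gene, had 212.13 and 157.94, against 206.35 and 126.33 (0.18, SE 0.15), Pf4 was at -0.12 (SE 0.12) and Lyve1 at -0.01 (SE 0.16). Cbr2 was at 0 and 2.43 in Ctcf-null libraries and at 14.23 and 6.25 in controls, too low to be tested. Whether the 9 genes differ from this list was not tested.

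Blood leukocyte genes were at low levels. Of 14 listed, 7 were below 10 normalized counts in every library and 6 were tested, and the sum was 130.8 and 120.3 in Ctcf-null libraries, against 124.5 and 106.3 in controls. The neutrophil granule gene Ngp was called higher, with 16.26 and 19.44 normalized counts in Ctcf-null libraries and 9.78 and 0 in controls, and did not pass in edgeR (adjusted p = 0.055). Erythroid genes, a mark of blood in the tissue, had 0 of 10 called in limma and in edgeR. Of the 10, 4 had an unadjusted limma p under 0.05 in either direction, for which the share of all genes was not computed. The medians of the erythroid genes had opposite signs in the pairs, at -0.59 and 0.15. Their sums were 925000 and 627021 normalized counts in Ctcf-null libraries, against 1344559 and 576253 in controls. The 9 microglia genes had pair medians of 0.28 and 0.23 in the same pairs. The part of blood content in the values of the 9 was not tested.

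The vascular genes called in limma were lower, and these calls depended on the fit. Of 11 endothelial genes 0 rose and 2 fell, Esam by 0.35 (SE 0.09) and Pecam1 by 0.31 (SE 0.10), with sums of 3717 and 9956 in Ctcf-null libraries, against 4288 and 10751 in controls. Of 8 mural genes 2 fell, Acta2 by 0.74 (SE 0.14) and Vtn by 0.25 (SE 0.08), with sums of 2967 and 4257 in Ctcf-null libraries, against 3405 and 5182 in controls. In edgeR 1 gene of each list was lower, and Pecam1 (adjusted p = 0.1) and Vtn (0.11) did not pass, nor did they in limma with TMM or upper-quartile factors. Esam did not pass with upper-quartile factors (0.096). In DESeq2 none of the 4 passed, with adjusted p of 0.23 for Esam, 0.51 for Pecam1, 0.053 for Acta2 and 0.46 for Vtn. Of 9 meningeal fibroblast genes, Pdgfra, which early oligodendrocyte precursors express too, rose by 0.53 (SE 0.12, not past the threshold in DESeq2 at an adjusted p of 0.098) and 0 fell, with sums of 4341 and 9093 in Ctcf-null libraries, against 4248 and 8445 in controls. Choroid plexus genes lay in the same direction as the microglia genes, with 3 of 10 higher (Ttr by 0.47, Otx2 by 0.48 and Enpp2 by 0.27), 0 lower, a median of 0.23 and sums of 97984 and 37722 normalized counts in Ctcf-null libraries, against 74971 and 26477 in controls. In DESeq2 Ttr passed, and Otx2 (adjusted p = 0.2) and Enpp2 (0.28) did not. Of these 10 genes, 0 were below 10 normalized counts in every library, and their part in the microglia result was not tested. Among the 5 telencephalon genes that fell were Dlx2 by 1.10, Lhx2 by 0.65 and Emx1 by 0.64. The pairs of Dlx2 differed by -0.41 and -1.80, and it did not pass in DESeq2 (adjusted p = 0.52). Of 10 genes of regions outside the telencephalon 7 were below 10 normalized counts in every library and 2 were tested. Lmx1b, a gene of the roof plate and midbrain, had 37.48 and 68.03 normalized counts in Ctcf-null libraries, against 0 and 1.25 in controls (limma adjusted p = 5.8e-07).

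The 5 tested genes whose pattern over the 4 libraries was closest to the mean of the 9, by Euclidean distance between centred log2 profiles, were 2510046G10Rik (0.018), 1700040D17Rik (0.049), Ccdc91 (0.053), Camta2 (0.061) and Aebp1 (0.065). Ccdc91 had 432.04 and 1171.15 normalized counts in Ctcf-null libraries, against 341.55 and 1009.38 in controls. Among the 9, Trem2 was closest to their mean profile (0.05), followed by Tyrobp (0.24) and Aif1 (0.41), and Cx3cr1 was farthest (2.48). In the other lists the closest was Ly86 of the wider microglia list, at rank 29, then Aqp1 of the choroid plexus list at rank 41 and Lpl at rank 54. The distances are dominated by the difference between the pairs and are a description over 4 libraries.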

How the data were processed

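The submitters' processing notes name mm10 as the genome, STAR 2.5.3 and DESeq2. A counter, an annotation release, strand and molecular identifiers are not stated. The authors deposited normalized read counts, a signal scaled per library and not by gene length, and log2 fold changes per pair, which were not used for values here. Dividing by the value of 1 read (0.707 and 1.21 in Ctcf-null 1 and 2, 0.889 and 1.25 in controls 1 and 2) made at least 99.972% of the nonzero values whole (tolerance 0.005).

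From these, limma 3.58.1 (R 4.3.3, mean-variance trend) was run on log2(normalized count + 1) for the 22158 genes kept by filterByExpr in edgeR 4.0.16, with pair and genotype as terms, two-sided, with Benjamini-Hochberg adjustment at 0.05. This scale understates the change of low genes, and its 95% intervals are not adjusted. On those reads, edgeR's quasi-likelihood fit (TMM factors) and DESeq2 1.42.0 were alternatives, as were other scalings, pseudocounts and filters, no block, and leaving out each library. edgeR called 2643 genes and DESeq2 832, against 3041 in limma.

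The submitters describe 2 pairs, and libraries of 1 pair deviated together from their groups (correlation 0.923), so the numbers were taken as pairing the samples. On simulated counts (22158 genes run, 200 changed), the limma fit found 65.7% of the 1.5-fold changes and 91% of the 2-fold ones, and made 10 false calls; without the block it recovered 0%. The changes described here are mostly below 1.5-fold.

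The 9 genes and the 14 other lists were chosen with earlier results of these data known. Genes were named by rule: the 9, Ctcf, the ligands, and up to 4 called genes with the largest fold change per list, with markers near 0; others were added after their values were seen. Some genes that the rule names are not reported here. Lengths, GC content and coordinates come from GENCODE vM21, where 7 of the 9 genes have the same identifier version as the table (Cx3cr1 and Csf1r have a later one).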

Additional observations from a re-analysis of the deposited data

How the results depend on the processing

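Without the replicate block, 0 genes passed as higher and 0 as lower, and 0 of the 9 microglia genes. DESeq2 with the block called 289 genes higher and 543 lower, and 0 of the 9. edgeR called 2 of the 9. TMM scaling gave 1382 genes lower, 2 of the 9 called and a median of the 9 of 0.34, and upper-quartile scaling gave 1229 higher, 901 lower, 2 of the 9 and 0.39. The pseudocounts and the filters tried kept the count of the 9 called at 1. C1qb lay at 0.46 to 0.58 over the 9 alternatives that keep all libraries and passed in 7, with adjusted p from 0.0012 to 1. P2ry12 lay at 0.31 to 0.42 and passed in 3, with adjusted p from 0.022 to 1. Grb2, Pecam1 and Vtn were not called in edgeR or under either other scaling.

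With a library left out and the block kept, 1 pair remains and gives values with no test: the median of the 9 was 0.23 to 0.28, and log2 fold changes that crossed 0 ran over C1qa -0.07 to 0.24, C1qc -0.01 to 0.70, Il34 -0.31 to 0.08, Gas6 -0.08 to 0.42. With a library left out and no block, where the lone library is assumed to vary like the other group, 0 genes passed as higher and 0 to 2 as lower, 0 of the 9 passed and their median was 0.97 without Ctcf-null 1, -0.39 without Ctcf-null 2, -0.49 without control 1 and 0.92 without control 2. The difference between pairs then enters the fold changes, given on the log2 scale. Without Ctcf-null 1 the fold changes with the opposite sign were Cx3cr1 -0.21, Il34 0.23, Tgfb2 0.06, Fabp5 0.10, Esam 0.23, Vtn 0.15, Ttr -0.25, Enpp2 -0.03 and Emx1 1.22. Without Ctcf-null 2 the fold changes with the opposite sign were C1qa -1.78, C1qb -0.97, C1qc -1.28, Csf1r -0.06, Aif1 -0.35, Tyrobp -0.39, Trem2 -0.50, Csf1 -0.27, Cx3cl1 -1.27, Gas6 -0.86, Cd63 -0.06 and Cd9 -0.03. Without control 1 the fold changes with the opposite sign were C1qa -1.62, C1qb -1.04, C1qc -1.64, Csf1r -0.12, Aif1 -0.19, Tyrobp -0.49, Trem2 -0.54, Csf1 -0.20, Cx3cl1 -1.35, Gas6 -1.12, Cd63 -0.10 and Cd9 -0.07. Without control 2 the fold changes with the opposite sign were Cx3cr1 -0.16, Il34 0.43, Tgfb2 0.11, Fabp5 0.07, Esam 0.18, Vtn 0.24, Ttr -0.33, Enpp2 -0.02, Dlx2 0.60 and Emx1 1.39. The few reads of C1qa and C1qc in pair 1, the more deeply sequenced pair, limit these genes, and 2 libraries per genotype limit every test.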
